A study of Mus musculus with 11 samples.

Results

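Genes that tell apart the D1 and D2 classes of striatal projection neuron were measured here in cells of the Gsh2-Cre lineage with and without Zeb2. The group holds 9 of the 39179 genes in the deposited count table, chosen by their symbols and by known function: Drd1, Tac1 and Pdyn of the direct pathway, Drd2, Adora2a, Gpr6 and Penk of the indirect pathway, and Ppp1r1b and Rgs9, which both classes use. All 9 symbols matched 1 identifier each, and all 9 passed the filter on low counts that left 14104 genes for testing. GFP-positive cells were sorted from the V-SVZ, the ventricular-subventricular zone beside the striatum where neurons and glia are still born, of CD1/Swiss mice at postnatal day 2. Both groups carried Gsh2-Cre and the RCE reporter, so that GFP marks cells descended from progenitors in which the Gsh2 promoter, active in the embryonic ganglionic eminences, drove Cre. The 6 control libraries came from Zeb2fl/wt animals (1 floxed and 1 wild-type allele of Zeb2, a zinc finger repressor gene) and the 5 mutant libraries from Zeb2fl/ko animals (1 floxed and 1 null allele). Recombination would thus take 1 allele from the sorted control cells too, and the null allele of the mutants lies in all of their cells. The labels do not say whether a library is 1 animal or a pool, nor that libraries came from separate animals, so the p-values rest on library-to-library spread, which may be technical.

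Striatal projection neurons are GABAergic cells born mainly in the lateral ganglionic eminence. Those of the direct pathway carry the D1 dopamine receptor, which raises cyclic AMP, and release substance P and dynorphin; those of the indirect pathway carry the D2 receptor, which lowers cyclic AMP, and an adenosine receptor, the product of Adora2a, which raises it, and release enkephalin. Both classes contain DARPP-32 and RGS9, which shape the response to dopamine. Much of this gene set is still maturing in the newborn, and the V-SVZ itself holds progenitors and young neurons of several fates.

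For the receptor genes whose levels differed between the groups, upstream sequence is shown where the RefSeq table held it (GRCm38.p6; 8 promoters of 6 of the 9 genes matched), next to that of Rgs9. Each runs 5′ to 3′ on the gene's strand and ends where an annotated exon begins or at the RefSeq start. Capitals mark 2 motifs searched on both strands in the 250 bases before each start: CACCTG, an E-box sequence that Zeb2 and other zinc finger or basic helix-loop-helix factors can bind (CAGGTG on the other strand), and the cyclic AMP response element TGACGTCA.
Drd1, outer start, chr13:54055706-54055908, minus strand, 203 bases: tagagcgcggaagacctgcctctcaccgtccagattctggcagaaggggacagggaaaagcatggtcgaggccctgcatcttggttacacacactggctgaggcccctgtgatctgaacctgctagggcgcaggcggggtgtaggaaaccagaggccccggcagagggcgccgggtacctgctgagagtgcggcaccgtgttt
Drd1, inner start, chr13:54054781-54055030, minus strand, in an intron: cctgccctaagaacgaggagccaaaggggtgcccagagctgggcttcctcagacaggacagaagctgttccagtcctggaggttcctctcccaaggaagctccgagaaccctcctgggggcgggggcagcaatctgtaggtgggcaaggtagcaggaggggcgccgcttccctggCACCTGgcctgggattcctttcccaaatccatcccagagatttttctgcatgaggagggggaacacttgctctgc
Drd2, chr9:49340153-49340402, plus strand: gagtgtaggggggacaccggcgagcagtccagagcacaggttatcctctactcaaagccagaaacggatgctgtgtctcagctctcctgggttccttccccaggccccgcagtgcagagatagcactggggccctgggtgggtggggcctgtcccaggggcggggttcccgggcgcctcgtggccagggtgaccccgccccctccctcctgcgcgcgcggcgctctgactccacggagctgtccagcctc
Gpr6, chr10:41072291-41072540, minus strand: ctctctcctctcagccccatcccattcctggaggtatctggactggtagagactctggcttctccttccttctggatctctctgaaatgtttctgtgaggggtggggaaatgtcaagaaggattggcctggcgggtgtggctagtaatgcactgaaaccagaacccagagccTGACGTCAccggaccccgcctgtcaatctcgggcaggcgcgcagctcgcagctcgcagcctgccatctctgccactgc
Rgs9, chr11:109298182-109298431, minus strand: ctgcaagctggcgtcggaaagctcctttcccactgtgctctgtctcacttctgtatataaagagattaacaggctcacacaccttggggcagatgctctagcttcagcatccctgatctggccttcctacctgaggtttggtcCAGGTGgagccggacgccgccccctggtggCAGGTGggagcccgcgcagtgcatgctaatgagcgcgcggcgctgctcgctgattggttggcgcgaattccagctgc

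The E-box was present 1 time before the inner Drd1 start and 2 times before the Rgs9 start, and was not in the windows of Drd2 and Gpr6. It occurred in 17.2% of all 32851 upstream windows of the table. Gpr6 held the cyclic AMP response element, as did 1.55% of all windows. The windows of Tac1 and Pdyn held neither motif. These matches describe letters only and show no binding.

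Total counts ranged from 6833981 to 13073505 per library, the lowest in control 1. Zeb2 itself stood at 152 to 285 CPM (read counts scaled to a common library size, here by library total) in the controls and 202 to 373 CPM in the mutants. A gene-level count includes exons outside a deleted part, so it does not check the genotype, and every direction below depends on the sample labels. Reads from 4 Y-linked genes numbered 763 to 2716 in controls 1, 2, 3 and 6 and 0 in controls 4 and 5 and in the 5 mutants. Sex and genotype can therefore be told apart only against controls 4 and 5, and values from that comparison are given below.

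In the mutants Drd1 rose and the indirect pathway genes Adora2a, Drd2 and Gpr6 fell, as did Ppp1r1b. The other peptide genes Tac1, Pdyn and Penk and the signalling gene Rgs9 did not pass the test. Thus 1 of 9 genes was higher and 4 were lower at an adjusted p of 0.05 (edgeR quasi-likelihood test, Benjamini-Hochberg adjustment over all genes tested), where 4.42% of all genes tested passed, 2.68% higher and 1.74% lower. The median log2 fold change of the 9 genes was -1.05, against -0.02 over all genes. By pathway, 1 of 3 direct genes was higher and 0 lower, 0 of 4 indirect genes were higher and 3 lower, and 1 of 2 shared genes was lower. These genes were grouped with earlier results of the same libraries known, so the counts describe them and are not independent evidence. With controls 4 and 5 as the only controls, Adora2a alone of the 5 stayed past the threshold. All 5 kept their direction there, with values given by gene below. That fit held fewer controls, which lowers its power, so a lost call there does not set sex apart from the smaller sample. Striatal identity markers were lower and interneuron markers higher in the same mutants, with values at the end, and their part in these results was not tested.

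**Figure D1:**
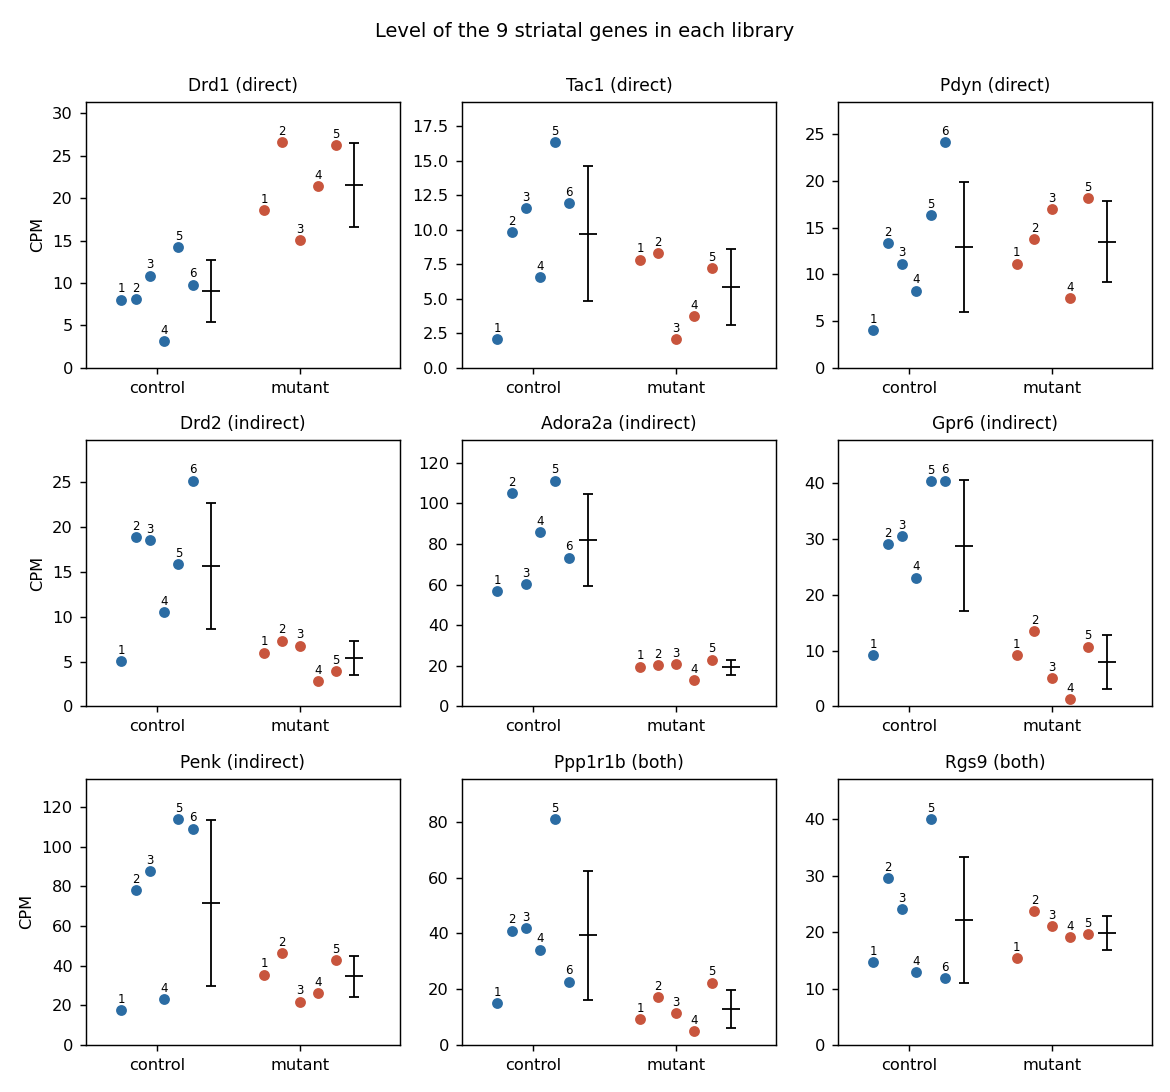
CPM (scaled by trimmed mean of M values) of each gene on a linear axis from 0, with 1 point per library numbered by replicate and the mean ± SD to the right (6 controls in blue, 5 mutants in red). Drd1 and Adora2a show no overlap between the groups, while control 1 lies within the range of the mutants for Drd2, Gpr6 and Ppp1r1b.

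Among the receptors, Drd1 (ENSMUSG00000021478, chromosome 13, 54051183 to 54055705, minus strand, GRCm38) encodes the D1 receptor. It stood at 3.14 CPM in control 4, the lowest control, at a median of 8.96 CPM over the 6 controls, and at 14.2 CPM in control 5, the highest. Mutants 1 to 5 stood at 18.6, 26.6, 15.1, 21.5 and 26.3 CPM. Every mutant lay above every control, although mutant 3 exceeded control 5 by little. The mean went from 9.03 ± 3.67 CPM (SD, n = 6) to 21.6 ± 4.95 CPM (SD, n = 5), a log2 fold change of 1.26 (SE 0.302, edgeR adjusted p = 0.0283). The reads behind this were few, between 30 and 316 per library. Its call was lost without control 1, control 2, mutant 2, mutant 4 or mutant 5 (log2 fold change 1.17 to 1.26, adjusted p from 0.0558 to 0.0661), and against controls 4 and 5 alone the value was 1.33 (adjusted p = 0.302).

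Drd2 (ENSMUSG00000032259, chromosome 9, 49340627 to 49408177, plus strand), the D2 receptor gene, moved the other way. Control 1 was lowest at 5.06 CPM, the median was 17.2 CPM and control 6 was highest at 25.1 CPM. In mutants 1 to 5 it stood at 5.99, 7.33, 6.78, 2.85 and 3.90 CPM. The groups overlapped through control 1, which lay among the mutants, and the other 5 controls were all above the 5 mutants. Drd2 fell by 1.55 on the log2 scale (SE 0.376, adjusted p = 0.0291), from 15.7 ± 7.05 to 5.37 ± 1.92 CPM. The threshold was missed without control 2, control 3, mutant 1, mutant 4 or mutant 5 (-1.60 to -1.39, adjusted p from 0.0554 to 0.076) and against controls 4 and 5 alone (-1.29, adjusted p = 0.202).

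Adora2a (ENSMUSG00000020178, chromosome 10, 75316877 to 75334784, plus strand), encoding the adenosine receptor that opposes D2 signalling in indirect pathway neurons, had a log2 fold change larger in size than the other 8 in all fits but those with limma-voom and without mutant 2, where Gpr6 was at -2.18 and -2.12 against -2.09 and -2.10. The controls ranged from 57.0 CPM in control 1 through a median of 79.6 CPM to 111 CPM in control 5. The 5 mutants held, from 1 to 5, 19.6, 20.3, 20.8, 13.1 and 23.1 CPM. Even the highest mutant was far below the lowest control, and control 1, low for most of these genes, did not reach the mutants. Adora2a fell by 2.08 on the log2 scale (SE 0.212, adjusted p = 3.88e-05), and the 11 fits that each left out 1 library gave -2.17 to -1.97, all past the threshold. Against controls 4 and 5 alone it was at -2.34 (adjusted p = 0.00034). It and Drd1 were the 2 of 9 genes with no overlap between the groups, which held for 4.91% of all genes tested, 2.03% with the mutants lower and 2.89% with the mutants higher.

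Gpr6 (ENSMUSG00000046922, chromosome 10, 41069977 to 41072285, minus strand), an orphan receptor gene of indirect pathway neurons, ranged in the controls from 9.22 CPM in control 1 through a median of 29.9 CPM to 40.5 CPM in controls 5 and 6. In mutants 1 to 5 it was at 9.22, 13.6, 5.14, 1.28 and 10.7 CPM. Control 1 sat within the mutant range, and mutant 4 was the lowest of all with 17 counts. Gpr6 fell by 1.86 on the log2 scale (SE 0.475, adjusted p = 0.0369). Its call was lost without controls 2, 3, 4, 5 or 6 or mutants 1 or 3, each left out singly (-1.92 to -1.74, adjusted p from 0.0561 to 0.106), and against controls 4 and 5 alone (-1.99, adjusted p = 0.169).

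**Figure D2:**
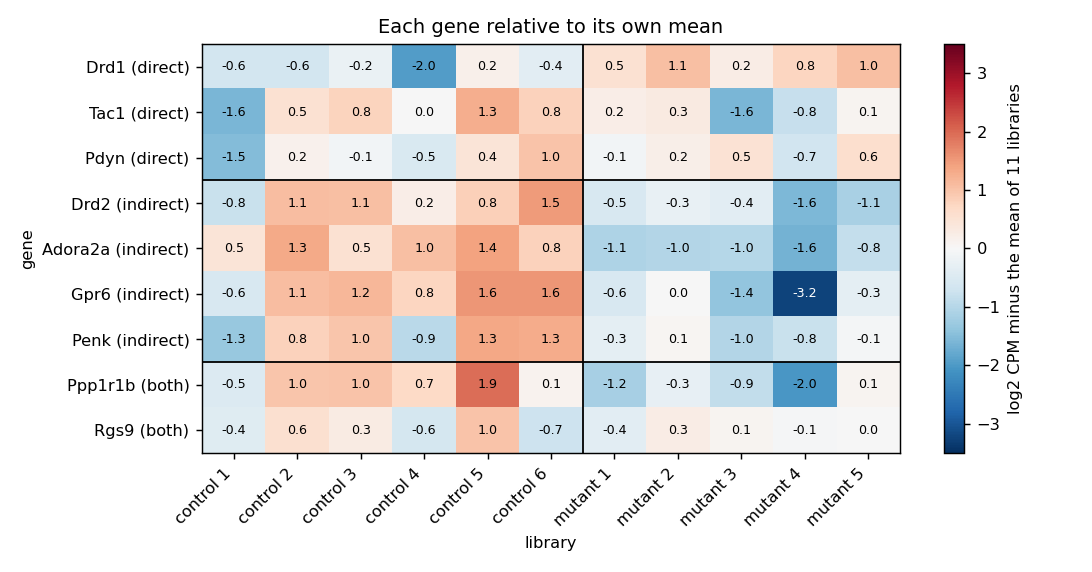
Log2 CPM of each gene minus its own mean over the 11 libraries (rows by pathway, columns by library, red above and blue below the mean). Adora2a separates the groups, and control 1 is below its row mean for every gene but Adora2a. By group mean Drd1 is higher in the mutants and the indirect genes are lower. Within the mutants Drd1 is highest in mutant 2, as are Drd2, Gpr6 and Penk but not Adora2a.

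Of the peptide precursors, Penk (ENSMUSG00000045573, chromosome 4, 4133531 to 4138819, minus strand), the source of enkephalin, varied widely among the controls. Control 1 and control 4 stood at 17.6 and 23.0 CPM and the other 4 controls between 77.9 and 114 CPM. The mutants held 35.5, 46.4, 21.9, 26.2 and 42.8 CPM, all above control 1 and all below the 4 high controls. The log2 fold change of -1.05 (SE 0.42, unadjusted p = 0.0244 in edgeR) did not pass after adjustment (adjusted p = 0.204, and 0.066 to 0.371 over the fits without 1 library).

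Tac1 (ENSMUSG00000061762, chromosome 6, 7554879 to 7565834, plus strand), the precursor gene of substance P, ranged from 2.08 CPM in control 1 through a median of 10.7 CPM to 16.3 CPM in control 5. The mutants 1 to 5 had 7.84, 8.33, 2.08, 3.75 and 7.23 CPM. All 5 lay below the control mean, but only 1 below the lowest control, and the log2 fold change of -0.73 did not pass (SE 0.45, adjusted p = 0.44). Whether its change differed from that of Drd1, its companion in direct pathway neurons, was not tested.

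Pdyn (ENSMUSG00000027400, chromosome 2, 129686565 to 129699844, minus strand), the dynorphin precursor gene, spanned 4.02 CPM in control 1 to 24.1 CPM in control 6, with a median of 12.3 CPM. The mutants, in order, had 11.1, 13.8, 17.0, 7.50 and 18.2 CPM, all inside the control range. Its log2 fold change was 0.06 (SE 0.368, adjusted p = 0.956), with an approximate 95% interval of -0.66 to 0.78, which leaves room for a change in either direction. The sign turned in 5 of the 23 alternative fits, those without control 1, control 4, mutant 3 or mutant 5 and that without both control 1 and mutant 5.

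Of the 2 signalling genes that both neuron classes use, 1 passed the test. Ppp1r1b (ENSMUSG00000061718, chromosome 11, 98348404 to 98357796, plus strand) encodes DARPP-32, which inhibits protein phosphatase 1 once protein kinase A has phosphorylated it. Control 1 was lowest at 14.9 CPM, the median was 37.6 CPM, and control 5 was highest at 81.0 CPM. Values in mutants 1 to 5 were 9.22, 17.2, 11.5, 4.95 and 22.3 CPM, so that mutants 2 and 5 lay above control 1. Ppp1r1b fell by 1.60 on the log2 scale (SE 0.422, adjusted p = 0.0443). That call was lost in 8 of the 11 fits without 1 library, those without controls 2, 3, 4 or 5 or mutants 1, 2, 3 or 4 (-1.70 to -1.25, adjusted p from 0.0658 to 0.12), and against controls 4 and 5 alone (-2.13, adjusted p = 0.0551).

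Rgs9 (ENSMUSG00000020599, chromosome 11, 109225355 to 109298129, minus strand), whose product speeds the deactivation of G proteins downstream of dopamine receptors, ranged from 11.8 CPM in control 6 through a median of 19.4 CPM to 40.0 CPM in control 5. In mutants 1 to 5 it held 15.4, 23.8, 21.1, 19.1 and 19.7 CPM. All 5 lay inside the control range, with an SD of 3.04 CPM against 11.2 CPM in the controls. The log2 fold change was -0.16 (SE 0.299, adjusted p = 0.84; approximate 95% interval -0.75 to 0.42).

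Several of these genes shared the library in which they were lowest or highest. Control 1 was the lowest control for 7 of the 9 genes and control 5 the highest for 6, whereas among the mutants mutant 4 was lowest for 5 and mutant 2 highest for 6. How often these libraries were lowest or highest over all genes was not counted, so these counts may not be particular to the 9 genes. Control 1 was also the shallowest library, and its part in these values was not tested beyond leaving it out, which left Adora2a, Drd2, Gpr6 and Ppp1r1b past the threshold (log2 fold changes -2.17, -1.73, -2.04 and -1.76) and Drd1 not (1.23, adjusted p = 0.0563).

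Within a library, the ratio of Drd1 to Drd2 counts (1 added to each) does not depend on scaling between libraries, though it is not corrected for gene length. In controls 2 to 6 it was 0.432, 0.587, 0.307, 0.896 and 0.392, and in control 1 it was 1.57. Mutants 1 to 5 had ratios of 3.08, 3.60, 2.21, 7.36 and 6.60. Drd2 counts thus exceeded Drd1 counts in 5 of 6 controls and in none of the mutants, and the groups did not overlap. On the log2 scale the mean was -0.76 ± 0.872 (SD, n = 6) in the controls and 2.04 ± 0.74 (SD, n = 5) in the mutants, a difference of 2.80. No test is given, since both genes were chosen with their changes known.

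The peptide genes of the same pathways did not give that separation. The log2 ratio of Tac1 to Penk was -2.77 ± 0.5 (SD, n = 6) in the controls and -2.66 ± 0.434 (SD, n = 5) in the mutants. For Pdyn to Penk it was -2.34 ± 0.546 and -1.36 ± 0.599. Both ratios overlapped between the groups.

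**Figure D3:**
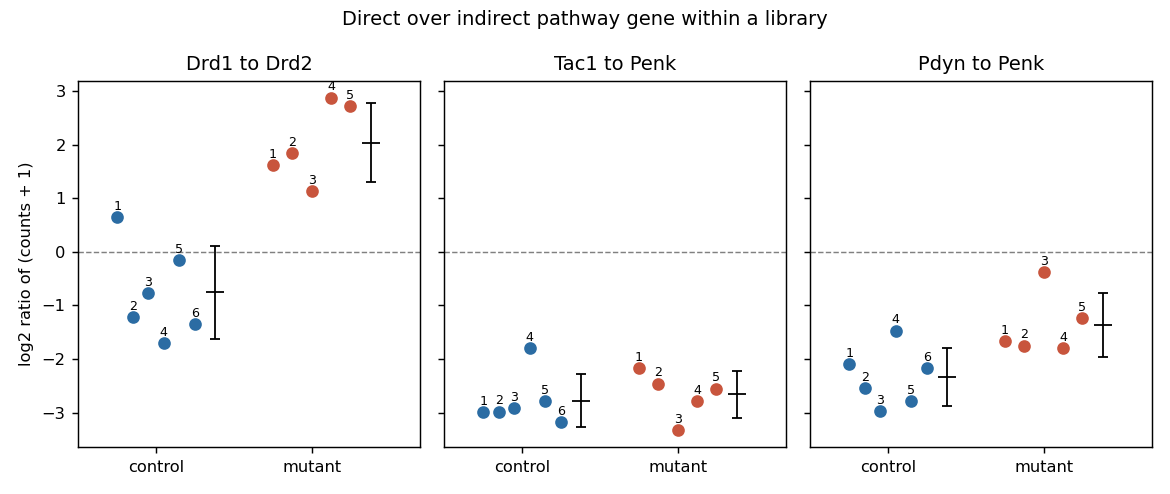
Log2 ratio of a direct to an indirect pathway gene in each library, from counts with 1 added (points numbered by replicate, mean ± SD to the right, dashed line at equal counts). The 5 mutants lie above all 6 controls for Drd1 to Drd2 (1.14 to 2.88 against -1.70 to 0.65), and the groups overlap in both peptide ratios.

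Levels of different genes can be compared once divided by exon length (CPM per kilobase of annotated exon). In the controls the order of mean levels ran from Penk at 43.8 ± 25.6 (SD, n = 6), Adora2a at 26.8 ± 7.42 and Gpr6 at 16.1 ± 6.58 through Ppp1r1b at 13.4 ± 7.86 and Drd2 at 6.15 ± 2.77. Below these came Pdyn at 4.46 ± 2.41, Rgs9 at 3.47 ± 1.75, Tac1 at 2.86 ± 1.44 and Drd1 at 2.49 ± 1.01. No gene differed from its neighbour in this order by more than their SDs. All 4 indirect genes stood above all 3 direct genes by mean.

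In the mutants Penk remained first at 21.1 ± 6.41 CPM per kilobase (SD, n = 5), and it was apart from the next gene by more than their SDs. Adora2a at 6.33 ± 1.22 and Drd1 at 5.95 ± 1.36 followed, then Pdyn at 4.68 ± 1.51, Gpr6 at 4.47 ± 2.70 and Ppp1r1b at 4.45 ± 2.33. Rgs9 at 3.10 ± 0.476, Drd2 at 2.11 ± 0.753 and Tac1 at 1.72 ± 0.814 were lowest. Drd1 thus went from last to the third place, although its new neighbours were within their SDs. With the length of the longest transcript instead, Drd1 was again last in the controls and was in the fourth place in the mutants.

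Other genes of these neurons and of dopamine signalling were read from lists set by function, of which 72 of 73 entries matched the table and 64 passed the filter. On them 5 genes rose and 10 fell, and 49 did not pass. Of 8 further direct pathway genes, 0 passed in either direction (edgeR; 5 had an unadjusted p under 0.05, and their median log2 fold change was -0.39). Sfxn1 and Zfp521, with the highest mean levels of them, had log2 fold changes of 0.28 and 0.29 (adjusted p = 0.197 and 0.719). Isl1 and Ebf1, transcription factor genes of direct pathway neurons that were picked out after their values were seen, stood at 41.6 ± 23.3 and 22.6 ± 12.7 CPM (SD, n = 6) in the controls and at 15.1 ± 8.14 and 7.26 ± 5.40 CPM (SD, n = 5) in the mutants (edgeR adjusted p = 0.0555 and 0.111). Their log2 fold changes were -1.46 and -1.64, and that of Eya1, also picked out after its value was seen, was 0.98 (adjusted p = 0.105). Of the 8 genes 4 had a negative and 4 a positive log2 fold change.

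On the indirect pathway side 2 of 5 further genes fell and 0 rose, with a median of -0.64. Grik3, a kainate receptor subunit gene, fell by 0.92 on the log2 scale (SE 0.17, adjusted p = 0.00474), from 63.6 ± 9.61 to 33.5 ± 7.54 CPM. Six3, a transcription factor gene needed for indirect pathway neurons, fell by 1.33 (SE 0.336, adjusted p = 0.0352), from 6.57 ± 2.06 to 2.61 ± 0.813 CPM. Six3 shares exon sequence with the antisense gene Six3os1, and with no strand setting stated its counts are uncertain. Its call was lost without controls 2, 3 or 6 or mutants 3, 4 or 5, each left out singly (-1.35 to -1.22). Against controls 4 and 5 alone neither gene passed, with log2 fold changes of -0.73 for Grik3 and -0.92 for Six3.

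Of 32 tested genes of dopamine and cyclic AMP signalling, 6 fell and 1, Arpp19, rose, and the median was -0.00. Rgs2, a regulator of G protein signalling, fell by 1.46 on the log2 scale (adjusted p = 0.00129), from 212 ± 74.8 to 77.1 ± 21.5 CPM. Pde10a, the cyclic nucleotide phosphodiesterase enriched in striatal projection neurons, fell by 1.36 (adjusted p = 0.00162), from 135 ± 27.3 to 52.4 ± 17.6 CPM. Arpp21 and Gng7, encoding a cyclic AMP regulated phosphoprotein and the gamma subunit that pairs with the striatal G protein, fell by 1.63 and 1.20, and exons of Arpp21 overlap 2900079G21Rik on the opposite strand. These 4 genes also passed against controls 4 and 5 alone. Others did not pass: Adcy5, the main striatal adenylyl cyclase, was at 12.7 ± 9.98 and 18.4 ± 4.22 CPM, and Pde1b at 122 ± 30.4 and 128 ± 35.9 CPM (named after their values were seen; adjusted p = 0.622 and 0.911).

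Among 9 tested receptors related to the members, 1 rose and 2 fell. Tacr1, the substance P receptor gene, rose by 2.05 on the log2 scale (SE 0.319, adjusted p = 0.00136), with means of 6.35 ± 1.68 and 26.3 ± 11.4 CPM. Adora1 and Chrm1, the adenosine A1 and muscarinic M1 receptor genes, fell by 1.17 and 1.07 on the log2 scale (adjusted p = 0.0104 and 0.0119). None of the 3 passed against controls 4 and 5 alone, where the log2 fold changes were 1.77 for Tacr1, -1.12 for Adora1 and -1.20 for Chrm1 (adjusted p = 0.145, 0.184 and 0.106). Of 10 genes of peptide processing and storage 3 rose, Pam, Chgb and Scg2, which encode a peptide amidating enzyme and a pair of secretory granule proteins, by 0.71, 0.90 and 1.01, and 0 fell. Exons of Pam overlap B230216N24Rik on the same strand. Scg2 lost its call without controls 2, 3 or 4 or mutants 1, 2, 3 or 4, each left out singly (0.93 to 1.02), and none of these 3 passed against controls 4 and 5 alone, with log2 fold changes of 0.77 for Pam, 0.64 for Chgb and 0.74 for Scg2.

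**Figure D4:**
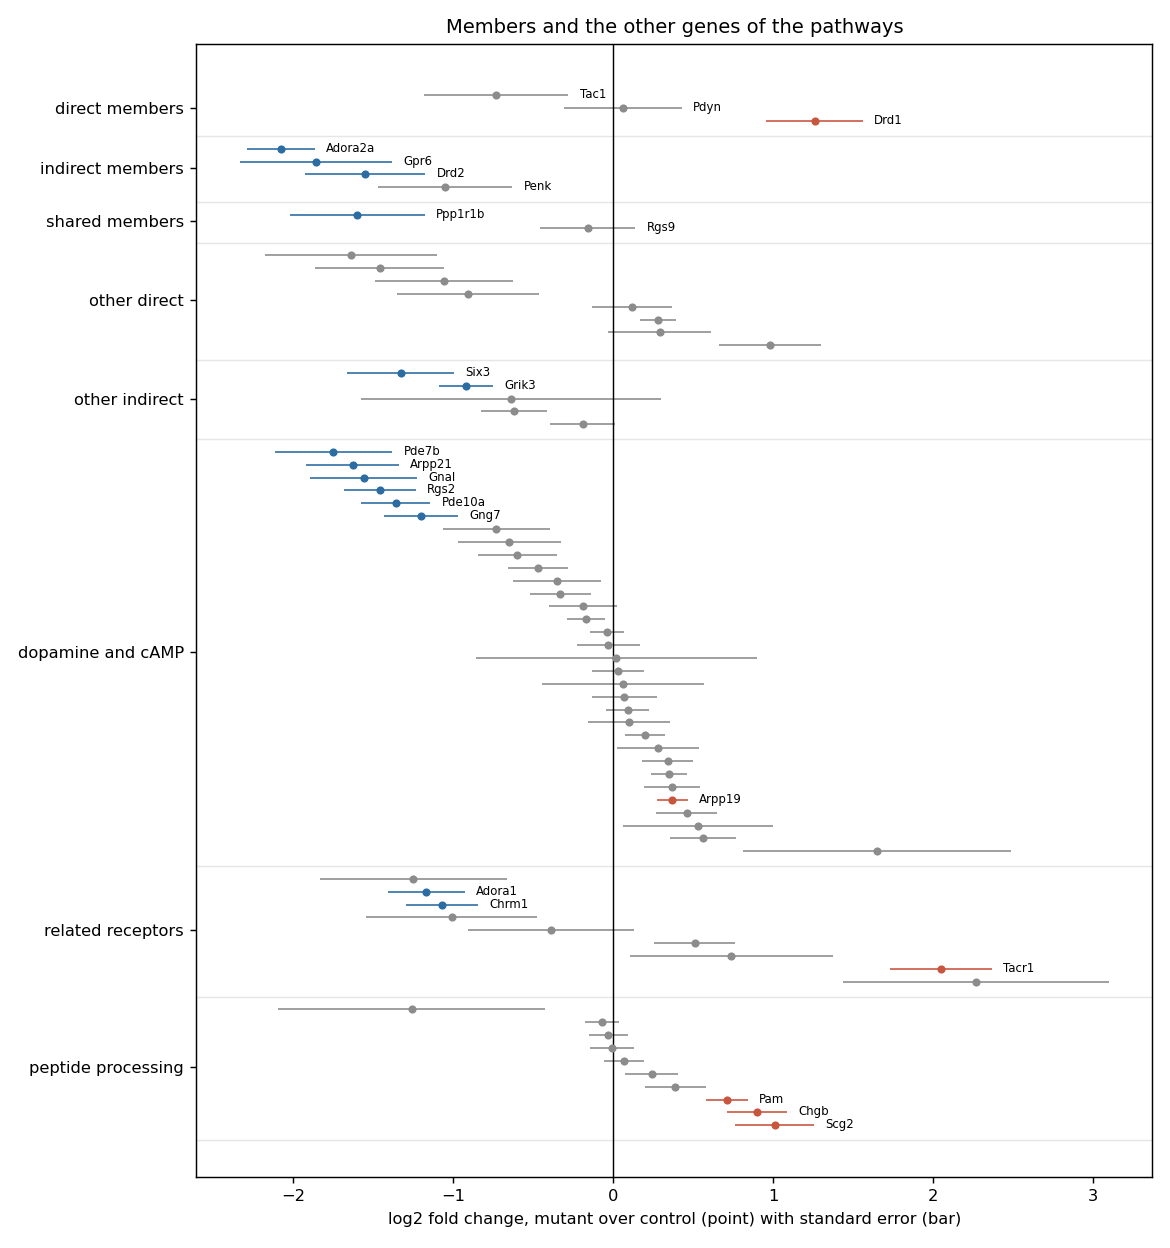
Log2 fold change of mutant over control with its standard error for every tested member and pathway gene (blue lower and red higher past the threshold, grey not past; names for members and for genes past the threshold). The indirect members lie at -2.08 to -1.05, with Penk at -1.05 not past the threshold. Of the direct members Drd1 lies at 1.26, and Tac1 at -0.73 and Pdyn at 0.06 are not past it. The dopamine and cyclic AMP genes spread on both sides of 0.

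Genes whose pattern over the 11 libraries was nearest to a member were found among the 14104 tested genes by the root mean square difference of log2 CPM, each gene centred on its own mean. For Drd1 they were Sncb, Gria1 and Csmd3, with differences of 0.193, 0.330 and 0.341, where Drd1 itself varied around its mean by 0.85. The difference between control and mutant is part of what was matched, so fold changes near that of Drd1 follow from the choice. The fold changes of these genes are therefore no separate evidence. Gria1 rose by 1.14 on the log2 scale (edgeR adjusted p = 0.0029), and Sncb and Csmd3 had 1.47 and 1.03 (adjusted p = 0.0516 and 0.0628). For Drd2 they included Ak5 and Grm5 at 0.406 and 0.464, and exons of Ak5 overlap Zzz3 on the opposite strand. For Adora2a the nearest were Gm14133, P2ry1 and Rxrg at 0.277, 0.340 and 0.348, and for Ppp1r1b they were Camkv, Rarb and Ngef at 0.371, 0.384 and 0.396, with exons of Rarb overlapping Top2b on the opposite strand. Gpr6 was less closely matched, with Nts, Rxrg and Spry4 at 0.587 to 0.594. Among the members Tac1 and Penk, of opposite pathways, were nearest to each other at 0.427, and Drd1 and Gpr6 were farthest apart at 1.92.

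Markers of striatal identity and of other cell types were read in the same libraries. In bulk libraries fewer cells of a type and less RNA per cell cannot be told apart. Of 10 striatal identity markers 4 fell, Rxrg, Bcl11b, Foxp1 and Rarb, and 0 rose; their summed level was 1256 to 2749 CPM in the controls, with control 1 and control 6 lowest, and 777 to 984 CPM in the mutants. Of 10 medial ganglionic eminence interneuron markers 7 rose and 1 fell, with sums of 504 to 810 CPM in the controls and 2864 to 4070 CPM in the mutants. Progenitor markers summed to 1635 to 2506 and 1736 to 1988 CPM, with 0 of 10 past the threshold, and astrocyte markers to 479 to 1118 and 475 to 1072 CPM, with 1 of 8 lower. Oligodendrocyte precursor markers summed to 792 to 2315 and 599 to 945 CPM, highest in control 6, with 1 of 6 tested genes lower. In edgeR 5 of these 6 genes had an unadjusted p under 0.05, and all 6 had negative log2 fold changes, with a median of -1.02. Olfactory bulb interneuron markers summed to 584 to 801 and 927 to 1171 CPM, with 2 of 10 higher and 1 lower. The part of these cell types, pallial cells below included, in the values of the 9 genes was not tested.

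Microglial and endothelial markers summed to at most 8.69 and 7.61 CPM in any library. Pallial excitatory markers summed to 8.32 to 65.3 CPM in the controls and 23.2 to 93.3 CPM in the mutants, highest in mutants 3 and 4. Of the 7 tested, 0 passed in edgeR and 0 had an unadjusted p under 0.05, and all 7 had positive log2 fold changes, with a median of 1.02. Of the midbrain dopamine neuron markers Pitx3 had 0 counts in every library, and the list summed to 30.4 to 60.0 CPM in the controls and 20.0 to 31.7 CPM in the mutants. Choroid plexus and ependymal markers summed to at most 13.1 CPM except in mutant 5, where they reached 215 CPM.

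**Figure D5:**
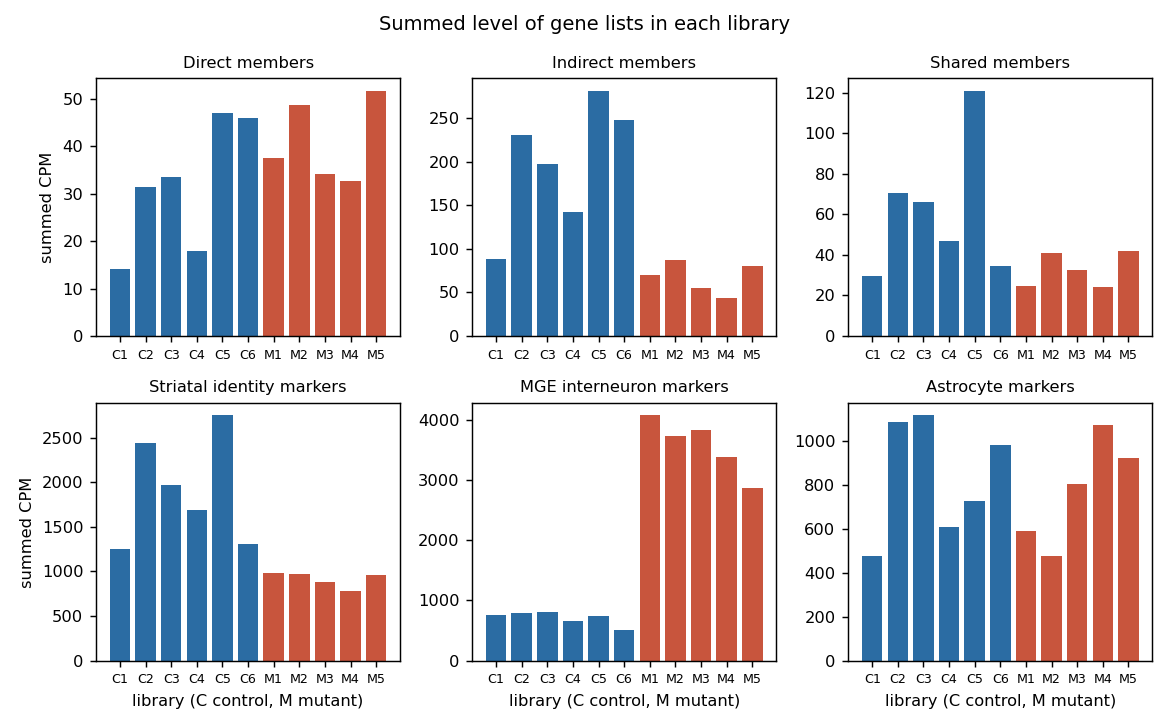
Summed CPM in each library of the direct, indirect and shared members and of the striatal identity, medial ganglionic eminence interneuron and astrocyte markers. Bars start from 0, with controls C1 to C6 in blue and mutants M1 to M5 in red. The striatal identity markers are lower and the medial ganglionic eminence interneuron markers higher in every mutant than in every control, and the direct members overlap. The indirect sums do not overlap either, but only narrowly (87.5 CPM in mutant 2 against 88.8 CPM in control 1). Adora2a makes up 57.0 CPM of that control 1 sum, and Drd2, Gpr6 and Penk each overlap between the groups.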

How the data were processed

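The authors deposited raw read counts per Ensembl gene, 1 column per library. Per the submitters' processing notes the tools were TopHat2 2.0.13 and featureCounts 1.4.6, with mm10 and GRCm38 as builds. Neither the annotation release, the strand setting nor the handling of multimapping reads is given in the sources used here. Symbols, coordinates and exon lengths came from GENCODE M21, which matched 37693 of 39179 identifiers.

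The whole table was fitted in R 4.3.3 by the robust quasi-likelihood method of edgeR 4.0.16, after filterByExpr and TMM scaling, with Benjamini-Hochberg adjustment over 14104 genes. CPM values are TMM-scaled unless said otherwise; the SE came from the fold change and the F statistic. Each library counted as 1 sample. No replicate pair of a group agreed within sampling noise (the lowest ratio of chi-square to its degrees of freedom was 13.7). That check cannot tell separate animals from separate preparations of 1 pool. The scripts were tested on simulated data. There, 50% of 2-fold and 86% of 4-fold changes were recovered, and 6.21% of calls were false. A gene that did not pass may thus still have changed.

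Members, gene lists and tests were chosen with earlier results of these data known. Named genes are the 9 members, up to 4 genes past the threshold by smallest adjusted p per pathway list (or the 2 with the highest mean level where none passed), and the 3 nearest genes of the members that the results turn on; exceptions are marked. The TGACGTCA search was added after the values were seen. A planned comparison of the encoded peptides was not run, and 2 of 173 list entries, Gpr52 and Lhfpl3, were not analysed here. Alternatives were other scalings, filters, DESeq2 1.42.0, limma-voom (limma 3.58.1), no robust estimation, thresholds of 0.01 and 0.1, leaving out libraries, a replicate block, libraries without Y-linked counts and a Y-linked covariate. The replicate block was fitted without control 6, which has no mutant of the same number.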

Additional observations from a re-analysis of the deposited data

Results flagged for a closer look

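The log2 ratio of Tac1 to Penk counts in control 4 was -1.79, far from the other controls, of which the next highest was -2.79; this gap took up 0.719 of the range of the 6 controls. Control 4 held 63 Tac1 and 220 Penk counts. Each of the 9 genes and 3 ratios was examined in both groups, 24 sets of libraries in all, and chance would mark about 1 set in 20.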

How the results depend on the processing

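Every called member kept its direction in all 23 alternative fits. Adora2a stayed past the threshold in each, while Drd1, Drd2, Gpr6 and Ppp1r1b lost their calls in 5, 5, 7 and 8 of the 11 fits without 1 library. Other scalings, the stricter filter, limma-voom and DESeq2 changed no call of a member; without a filter Ppp1r1b was not past the threshold (adjusted p = 0.0527). Members called higher and lower numbered 1 and 4, against 0 and 1 with the Y-linked covariate, 0 and 1 in libraries without Y-linked counts, 0 and 2 with the replicate block, 0 and 1 at a threshold of 0.01, and 0 and 4 without control 1 and mutant 5 (chosen after seeing the data, as the libraries with the highest share of Gm42418 counts in their group). Leaving out 1 library gave 0 to 1 higher and 1 to 4 lower. Pathway genes called higher and lower numbered 5 and 10, against 0 and 5 with the covariate, 0 and 5 without Y-linked libraries, 3 higher with the block, and 2 and 5 at 0.01; leaving out 1 library gave 3 to 6 and 9 to 11. Over all genes 378 were higher and 245 lower, against 614 and 495 with DESeq2, 103 and 55 with the covariate, 150 and 68 without Y-linked libraries, 204 and 82 at 0.01 and 421 lower at 0.1; leaving out 1 library gave 269 to 405 and 149 to 251. The replicate numbers do not pair the libraries by their deviations from the group means (correlations from -0.048 to 0.031). The fit with the replicate block also left out control 6, so it differs from the main fit in its libraries too. With the replicate block 143 genes were lower, and Drd1, Drd2 and Gpr6 were at 1.38, -1.32 and -1.89 (adjusted p = 0.0554, 0.0848 and 0.0784). With control 6 left out and no block, Drd1 and Drd2 were at 1.28 and -1.37 (edgeR adjusted p = 0.0349 and 0.0481), and Gpr6 did not pass. Counts per library ran from 14 to 147 for Tac1 and from 27 to 261 for Pdyn, against 30 to 316 for Drd1 and 34 to 272 for Drd2; the part of depth in the calls was not tested.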
